A study of Mus musculus with 4 samples.

Results

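The mitochondrial ribosomal proteins are encoded by nuclear genes whose symbols begin with Mrpl or Mrps. The rule took every row of the count table with such a symbol followed by a digit and left out pseudogenes. It found 78 of the 25759 gene symbols. RNA came from type II cells of the alveolar epithelium, which make surfactant, in C57BL/6 mice aged 14 weeks. There were 2 wild-type (WT) libraries and 2 libraries from Sftpc-mTOR transgenic (mTOR Tg) mice, a conditional line for active mTOR, the growth-controlling kinase, in the epithelium. The line's name holds Sftpc, the surfactant protein C gene of type II cells. The sources used here do not say how the transgene was switched on, what sex the mice were, how the cells were sorted or whether a library holds 1 mouse or a pool. A p-value therefore measures only how these libraries vary, which may be technical.

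Mitochondria carry their own ribosomes, which translate the few mRNAs of the mitochondrial genome into subunits of the respiratory chain and the ATP synthase. Their protein parts are made in the cytosol, imported and assembled on mitochondrial rRNA into a large and a small subunit. Many have a counterpart in bacterial ribosomes, and the others are known only from mitochondria. mTOR complex 1 is known to raise the synthesis of mitochondrial proteins, partly through translation of their mRNAs, which a count of transcripts does not measure. Type II cells are rich in mitochondria, which serve their surfactant synthesis.

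Library totals ran from 18146693 to 21972124 counts, and the libraries differed in other ways that touch the results. Summed markers of club cells, the secretory cells of the airway, were 163000 CPM (counts scaled to a fixed library total) in mTOR Tg replicate 1 and 57700 in replicate 2, against 85600 and 92200 in the WT libraries. For ciliated cells the sum was 2440 CPM in mTOR Tg replicate 1 and 1180 in replicate 2, against 1100 and 1310 for WT. Type II cell markers summed to 142000 and 121000 CPM for WT and to 116000 and 151000 for mTOR Tg. Markers of type I cells, also of the alveolar epithelium, summed to 1610 and 1550 CPM for WT and to 1990 and 1720 for mTOR Tg. Endothelial markers summed to 156 and 158 CPM for WT and to 95.8 and 102 for mTOR Tg. Red cell markers summed to 2550 and 3680 CPM for WT and to 3240 and 1040 for mTOR Tg. The sums for fibroblasts were 46.9 and 32.2 CPM for WT and 32.5 and 62.7 for mTOR Tg. For both cell types the genotypes overlapped. The 8 leukocyte markers summed to 251 and 253 CPM for WT and to 147 and 261 for mTOR Tg, nearly all of it from Lcp1, and 2 of them, Cd3e and C1qb, had no count in any library. Between the WT libraries the biological coefficient of variation was 0.0891, and between the mTOR Tg libraries 0.325. In bulk RNA, fewer cells of a type and less RNA per cell cannot be told apart.

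All 78 genes passed the filter on low counts. Their counts ran from 114 (Mrps22) to 884 (Mrpl24) in WT replicate 1, from 104 (Mrps22) to 887 (Mrpl14) in WT replicate 2, from 154 (Mrps22) to 1433 (Mrpl14) in mTOR Tg replicate 1 and from 104 (Mrps22) to 916 (Mrpl14) in mTOR Tg replicate 2. Together they took 0.177% and 0.173% of all counts for WT and 0.227% and 0.174% for mTOR Tg. The share in mTOR Tg replicate 2 lay between those of the WT libraries, and the share in mTOR Tg replicate 1 lay above all others. By subunit, 51 genes belong to the large subunit, of which 30 were listed with a bacterial counterpart. The small subunit has 26, of which 16 were so listed. The large subunit group includes Mrps30 and Mrps18a, whose proteins are found there in spite of their names. The remaining gene is Mrps36, whose product is now known as a part of the 2-oxoglutarate dehydrogenase complex.

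On GRCm38, the assembly called mm10, the genes lie on 17 chromosomes, with 11 on chromosome 11. Their annotated principal transcripts have a median length of 1302 bases (range 418 to 7300), against 3013 bases for the 12863 protein-coding genes with at least 40 counts over the 4 libraries. A protein-coding gene on the opposite strand starts within 500 bases upstream of 17 of the 78, which is 21.8%, against 9.30% of those 12863 genes. Such pairs include Mrps12 with the mitochondrial seryl-tRNA synthetase gene Sars2 (172 bases apart), Mrpl32 with the proteasome gene Psma2 (75 bases) and Mrpl49 with Fau (59 bases), which encodes a cytosolic ribosomal protein. Exons of 28 members overlap a gene on the opposite strand, and Mrps11 and Mrpl46 overlap each other in this way. The strandedness of the counting is not given, so reads of such pairs cannot be told apart. The 5 pseudogene symbols of the family in the annotation are absent from the table, and reads from near-identical copies could be counted under the parent gene.

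Promoter windows from RefSeq (GRCm38.p6, 250 bases before to 50 after the start) were found for 69 of the 78 genes. Each was searched on both strands for 3 short motifs: GCGCA, then any base, then GCGC for nuclear respiratory factor NRF1, CCGGAAG of the ETS family, to which GABP belongs, and AAGATGGC of YY1. These factors are known as regulators of nuclear genes for mitochondrial proteins. The NRF1 motif was found in 13 genes (18.8%, against 11.3% of the 10107 protein-coding genes with counts and a window and 5.19% of all 27025 genes with a window). The ETS motif was found in 26 genes (37.7%, against 19.7% and 9.93%). The YY1 motif was found in 12 genes (17.4%, against 5.12% and 3.19%). A match is a description of the letters and does not show that a factor binds. The sequences below show 1 or 2 members for each motif, chosen after the matches were seen, with the match in capitals and the gene's strand read 5′ to 3′. The NRF1 matches and the ETS match of Mrps18c lie on the opposite strand and so read as the reverse complement of the motif. Distances to these matches count from the RefSeq start, which can differ from the GENCODE start used for gene positions. The NRF1 matches begin 81 bases before the start of Mrpl12 (chr11:120484536-120484585, plus strand) and 91 bases before that of Mrps21 (chr3:95871576-95871625, minus strand). The ETS matches begin 37 bases before the start of Mrpl34 (chr8:71464869-71464915, plus strand) and 156 bases before that of Mrps18c (chr5:100798583-100798629, plus strand). The YY1 match begins at base 12 after the start of Mrps18a (chr17:46111004-46111033, plus strand).
Mrpl12, NRF1: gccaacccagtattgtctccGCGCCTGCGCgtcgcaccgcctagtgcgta
Mrps21, NRF1: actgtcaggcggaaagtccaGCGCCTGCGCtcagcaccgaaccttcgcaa
Mrpl34, ETS: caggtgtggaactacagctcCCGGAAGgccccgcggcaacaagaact
Mrps18c, ETS: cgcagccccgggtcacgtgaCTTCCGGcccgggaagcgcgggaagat
Mrps18a, YY1: aggtgcgttccAAGATGGCggccctcaggg

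**Figure D1:**
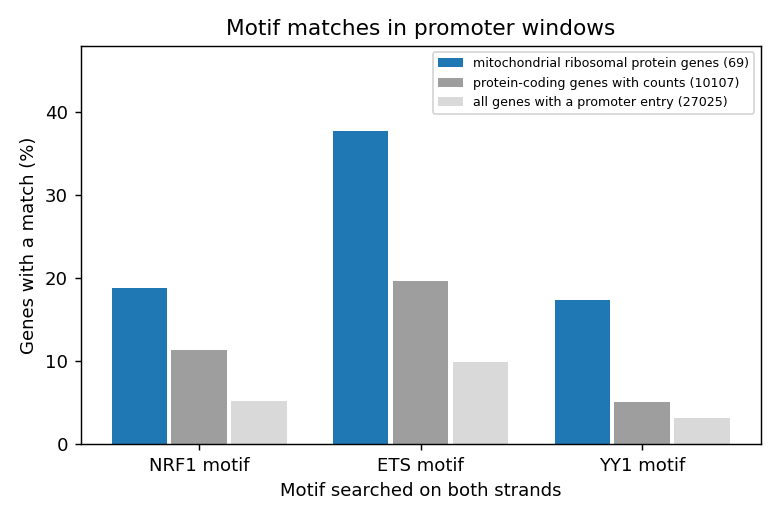
Share of genes (%) with at least 1 match to each motif in the 300-base promoter window, for the 69 mitochondrial ribosomal protein genes, the 10107 protein-coding genes with counts and all 27025 genes with a window. For the ETS motif the shares are 37.7%, 19.7% and 9.93%.

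Levels per length spanned a wide range. On the scale of normalised CPM per kilobase of principal transcript, averaged over the 4 libraries, Mrpl52 (97.1), Mrps21 (80.6) and Mrpl14 (80.4) were highest and Mrpl1 (2.09), Mrpl19 (2.24) and Mrpl35 (2.41) lowest. All 6 encode structural proteins of their subunit, the small one for Mrps21 and the large one for the others. The level of Mrpl52 was 91.2 and 90.4 in WT and 129 and 77.7 in mTOR Tg, and that of Mrps21 was 73.5 and 65.5 in WT and 108 and 75.6 in mTOR Tg. The level of Mrpl1 was 2.18 and 1.95 in WT and 2.21 and 2.05 in mTOR Tg. The lowest genes have long annotated transcripts (3556 to 5000 bases) and the highest short ones (418 to 645 bases), and which transcript the reads came from is not known. Across the 78 genes, log2 CPM of the WT libraries correlated at Pearson's r of 0.986. The 2 correlations of mTOR Tg replicate 2 with WT were 0.975 and 0.982, and those of mTOR Tg replicate 1 were 0.920 and 0.930. The points are genes of the same libraries, and no test was made of them.

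The comparison of mTOR Tg with WT asks which of these transcripts differ in the line made for active mTOR. Mtor itself was at 56.8 and 56.7 CPM for WT and at 38.9 and 61.8 for mTOR Tg (log2 fold change -0.17, SE 0.27), lowest in mTOR Tg replicate 1. Whether the transgene's reads were counted under this symbol is not known, so the counts do not check the labels. The edgeR quasi-likelihood test called 0 of the 78 genes at an adjusted p of 0.05, where 0% of the 13306 genes tested were called, and the adjusted p of the members ran from 0.860 to 0.998. At an unadjusted p under 0.05, 1 member was higher and 0 lower, against 1.54% and 0.917% of all genes. DESeq2 called 0 members, and 0.0676% of all genes higher and 0.0225% lower. The edgeR fit with a replicate block called 0 members, and 0.165% of all genes higher and 0.113% lower. Without WT replicate 1 (0.0729% of all genes higher, 0.00729% lower), WT replicate 2 (0.0802% and 0.0292%) or mTOR Tg replicate 1 (1.25% and 0.948%), 0 members were called.

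The log2 fold change was positive in 70 of the 78 genes (50.9% of all genes tested), with a median of 0.28 over the members and 0.01 over all genes. Of the 4741 tested genes within the quartiles of member length (919 to 2590 bases), 3446 were positive, with a median of 0.17. The members' log2 fold changes ran from -0.13 (Mrpl47) to 0.87 (Mrps6).

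The mTOR Tg libraries differed in that shift. In mTOR Tg replicate 1, 71 of 78 genes lay above the WT mean (50.8% of all genes tested). The members' median difference was 0.52 in log2 CPM, with quartiles of 0.36 and 0.65. Of the 4741 genes of similar length, 3550 lay above the WT mean, with a median of 0.32. In mTOR Tg replicate 2, 31 of 78 lay above it (49.9% of all genes), with a median of -0.04 and quartiles of -0.11 and 0.06. The WT libraries differed from each other by a median of -0.08 (replicate 2 minus replicate 1), with 74 of 78 genes within 0.25. In 74 of 78 genes mTOR Tg replicate 1 was above replicate 2, against 6723 of all 13306 genes and 3509 of the 4741 of similar length. The members' median difference between these 2 libraries was 0.55. Without mTOR Tg replicate 1 the members' median log2 fold change was -0.04, and without mTOR Tg replicate 2 it was 0.52. Without mTOR Tg replicate 2 the edgeR test called 55 members higher and 0 lower, where 21.8% of all genes were called higher and 23.6% lower. That fit holds a single mTOR Tg library, and takes its spread to be that of the WT pair. The markers of club, ciliated and type I cells given above were highest in mTOR Tg replicate 1, and their part in the result was not tested.

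**Figure D2:**
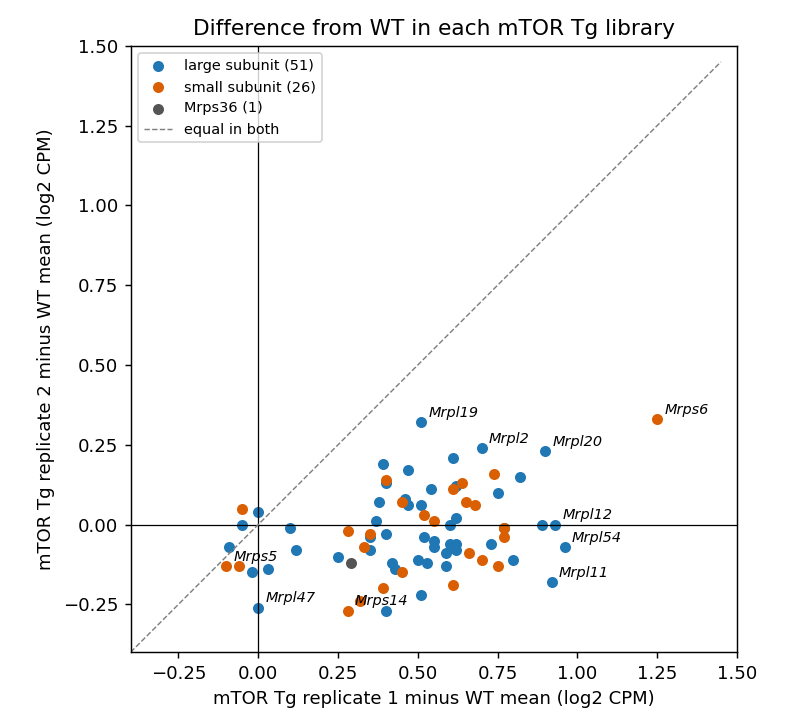
Difference of each mTOR Tg library from the WT mean in log2 CPM, replicate 1 on the x axis and replicate 2 on the y axis, 1 point for each of the 78 genes. All but 4 genes lie below the dashed line of equal values, and the points centre on 0.52 along x and on -0.04 along y.

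In 21 members both mTOR Tg values were higher than either WT value, 26.9% of them, against 17.6% of all genes tested. In 2 members, Mrps2 and Mrps5, both were lower than either WT value, against 17.0% of all genes. In the other 55 members the groups overlapped. Members are short genes, and among the 4741 tested genes within the quartiles of member length (919 to 2590 bases) both values were higher in 26.1%, close to the members' 26.9%, and both lower in 8.80%. The 21 genes are Mrpl2, Mrpl13, Mrpl19, Mrpl20, Mrpl30, Mrpl34, Mrpl35, Mrpl36, Mrpl41, Mrpl43, Mrpl46 and Mrpl55 of the large subunit, and Mrps6, Mrps7, Mrps17, Mrps18c, Mrps21, Mrps24, Mrps31, Mrps33 and Mrps35 of the small subunit. By library, 70 members of mTOR Tg replicate 1 lay above both WT values (44.7% of all genes), and in mTOR Tg replicate 2 there were 21 above both (26.9%, against 35.1% of all genes), 23 between them and 34 below both (43.6%, against 35.5%).

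Mrps6 (chromosome 16, 92058270 to 92112227), which encodes a small subunit protein with a bacterial counterpart, had the largest difference among the members. It was at 14.4 and 16.2 normalised CPM in WT and at 36.5 and 19.2 in mTOR Tg, from 262, 320, 744 and 402 counts. Both mTOR Tg libraries were above both WT libraries, and replicate 1 was far above replicate 2. The log2 fold change was 0.87 (SE 0.34, edgeR adjusted p = 0.860), and from 0.33 to 1.26 with 1 library left out. Mrps6 was the 1 member with an unadjusted p under 0.05. Exons of the inositol transporter gene Slc5a3 overlap those of Mrps6 on the same strand, and Slc5a3 was at 9.06 and 15.6 CPM in WT and at 14.4 and 17.4 CPM in mTOR Tg. Which of these genes shared reads came from is not known. None of the 3 motifs was found in the promoter window of Mrps6, and the 184 bases before its first annotated start (chr16:92058086-92058269, plus strand) are shown to compare with the matches above.
Mrps6, upstream: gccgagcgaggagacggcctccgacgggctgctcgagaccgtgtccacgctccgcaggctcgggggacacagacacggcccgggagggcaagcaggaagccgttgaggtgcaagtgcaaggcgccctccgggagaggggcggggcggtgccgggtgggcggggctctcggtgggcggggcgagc

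Mrpl20 (chromosome 4, 155802878 to 155809975), whose protein binds the rRNA of the large subunit, was at 14.8 and 14.9 CPM in WT and at 27.7 and 17.4 in mTOR Tg. The groups did not overlap, and the gap between the mTOR Tg libraries was wider than that between replicate 2 and WT. Its log2 fold change was 0.60 (SE 0.28, edgeR adjusted p = 0.860), and 0.23 without mTOR Tg replicate 1. Mrpl19, a large subunit gene, differed less between the mTOR Tg libraries. It was at 8.89 and 10.3 CPM in WT and at 13.7 and 12 in mTOR Tg (log2 fold change 0.42, SE 0.23), and its exons overlap those of Gcfc2 on the opposite strand. Mrpl35 was at 8.56 and 7.58 CPM in WT and at 10.6 and 9.19 in mTOR Tg (log2 fold change 0.29, SE 0.23). For both genes the mTOR Tg values stood above both WT values. For Mrpl35, as for Mrpl20, the gap between the mTOR Tg libraries was wider than that between replicate 2 and the nearer WT library.

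The stalk of the large subunit recruits the translation factors. Its repeated protein is encoded by Mrpl12 (chromosome 11, 120484613 to 120489065), which was at 30.8 and 28.9 CPM in WT and at 56.8 and 29.9 in mTOR Tg. Mrpl12 was therefore high in mTOR Tg replicate 1 alone, with replicate 2 between the WT values, a log2 fold change of 0.54 (SE 0.33) and 0.00 without replicate 1. Mrpl10, whose protein holds the stalk on the subunit, was at 36.8 and 39.6 CPM in WT and at 49.4 and 38.3 in mTOR Tg. Mrpl11, whose protein lies at the foot of the stalk, was at 11.5 and 11.8 CPM in WT and at 22.1 and 10.2 in mTOR Tg. All 3 genes had replicate 1 above WT and replicate 2 within or below the WT values.

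Other large subunit genes followed the same split. Mrpl54 was at 15.9 and 13.2 CPM in WT and at 28.2 and 13.7 in mTOR Tg, with a log2 fold change of 0.53 (SE 0.38) that was -0.08 without mTOR Tg replicate 1. Mrpl45, whose protein ties the ribosome to the inner membrane, was at 12.8 and 12.9 CPM in WT and at 17.4 and 11.7 in mTOR Tg. Mrps30 was at 13.7 and 13.8 CPM in WT and at 18.2 and 11.4 in mTOR Tg. In these genes mTOR Tg replicate 1 was the highest library, and replicate 2 was below both WT values for Mrpl45 and Mrps30. Mrpl52 was at 38.1 and 37.8 CPM in WT and at 54.1 and 32.5 in mTOR Tg, and Mrpl14 at 48.4 and 44.8 CPM in WT and at 70.3 and 43.9 in mTOR Tg. The groups overlapped for both.

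In the small subunit, Mrps12, whose protein lies at the decoding centre, was at 24.5 and 24.1 CPM in WT and at 41.4 and 24.2 in mTOR Tg. The 3 relatives of the bacterial protein S18 had similar values. Mrps18a, of the large subunit, was at 14.1 and 15.8 CPM in WT and at 21.3 and 15.5 in mTOR Tg. Mrps18b was at 14.2 and 13.0 CPM in WT and at 22.2 and 12.6 in mTOR Tg. Mrps18c was at 14.2 and 15.1 CPM in WT and at 23.5 and 15.2 in mTOR Tg. Their log2 fold changes were 0.30 (SE 0.25), 0.35 (SE 0.32) and 0.40 (SE 0.28), so each lay within 2 of its standard errors from 0. Without mTOR Tg replicate 1 they were 0.05, -0.11 and 0.06, and without replicate 2 they were 0.51, 0.70 and 0.68. Mrps21 was at 35.9 and 31.9 CPM in WT and at 52.7 and 36.9 in mTOR Tg. Mrps36, the gene outside the ribosome, was at 19.0 and 18 CPM in WT and at 22.7 and 17.0 in mTOR Tg.

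A few members were not high in mTOR Tg replicate 1. Mrpl47, which had the lowest log2 fold change, was at 11.3 and 10.2 CPM in WT and at 10.7 and 8.95 in mTOR Tg (-0.13, SE 0.23). Mrps5 was at 20.1 and 18.1 CPM in WT and at 17.8 and 17.4 in mTOR Tg (-0.12, SE 0.20), and Mrps2 at 13.6 and 14.0 CPM and at 13.2 and 12.6 (-0.10, SE 0.21). Both encode small subunit proteins with bacterial counterparts. Mrpl50 was at 24.7 and 22 CPM in WT and at 21.8 and 22.2 in mTOR Tg (-0.08, SE 0.20), and Mrpl1 at 7.74 and 6.92 CPM and at 7.85 and 7.28 (0.05, SE 0.23). None of these genes had the groups further apart than 2 of their standard errors.

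**Figure D3:**
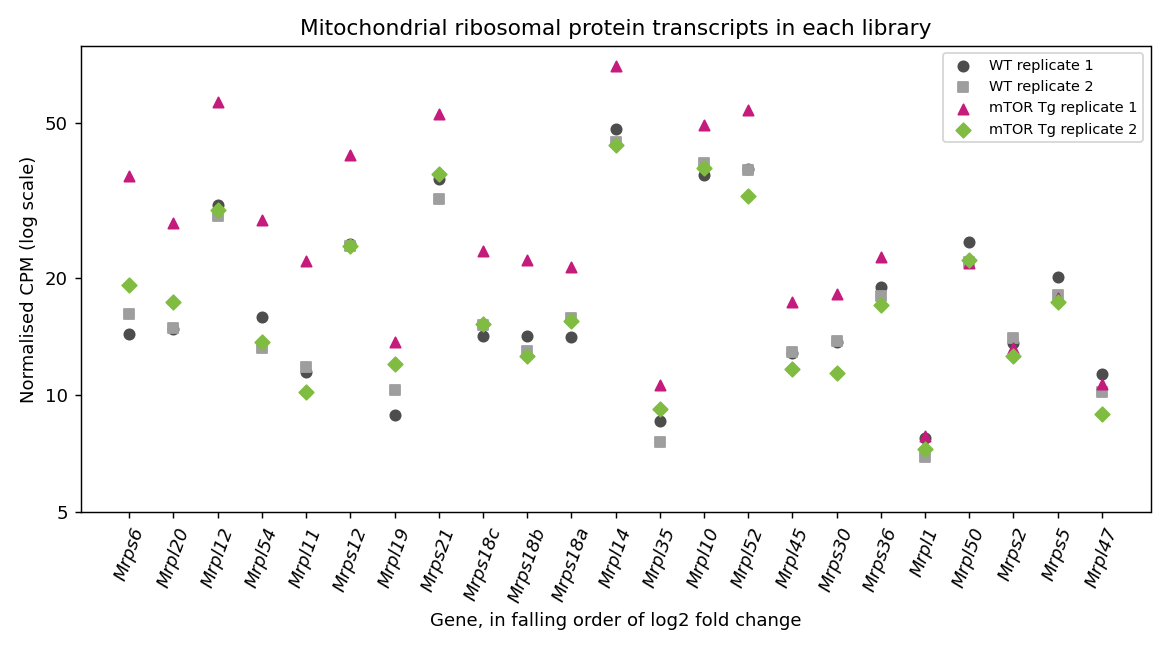
Normalised CPM (log scale) of 23 named genes in each of the 4 libraries, ordered by log2 fold change from Mrps6 (0.87) to Mrpl47 (-0.13). The triangles of mTOR Tg replicate 1 stand above the other symbols on the left, while the diamonds of replicate 2 stay near the WT symbols.

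Large subunit genes had a median log2 fold change of 0.28, with 46 of 51 positive, and small subunit genes one of 0.29, with 23 of 26 positive. In mTOR Tg replicate 1 the medians were 0.51 and 0.54 above WT and in replicate 2 they were -0.04 and -0.02. Genes listed with a bacterial counterpart were at 0.52 and -0.01 in the mTOR Tg libraries and the other subunit genes at 0.52 and -0.06. Mrps18a and Mrps18b, though relatives of a bacterial protein, were counted among the others. No test between these groups was made. The 26 members with an ETS match had medians of 0.60 and -0.05 and the 13 with an NRF1 match 0.50 and -0.06. The 12 with a YY1 match had medians of 0.49 and 0.05 and the 26 with none of the motifs 0.44 and -0.04. After the correction for length and GC content given below, the replicate 1 medians were 0.23, 0.36, 0.13 and 0.19 in the same order. The 31 members whose exons overlap another gene had medians of 0.51 and -0.04, and the 47 others 0.52 and -0.03.

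Transcript length moved with the difference of mTOR Tg replicate 1 from WT over all genes. Among the 13137 tested genes with an annotated length, the median difference was 0.43 in the shortest quartile (204 to 1915 bases), 0.13 and -0.12 in the next 2 and -0.54 in the longest (4501 bases and more). Members stood at 0.55 (52 genes), 0.57 (8 genes), 0.37 (14 genes) and 0.50 (4 genes) in the same quartiles. The 4 members of the longest quartile are Mrpl17, Mrpl19, Mrps17 and Mrps25. With the shortest coding transcript of each gene in place of the principal one, all genes stood at 0.33, 0.17, -0.05 and -0.43, and members at 0.59 (49 genes), 0.40 (14 genes), 0.43 (9 genes) and 0.40 (6 genes). The members' median was positive in each of these quartiles. The longest quartiles hold only 4 and 6 members, and among the 6 Mrps5 was at -0.10. The part of transcript length in the members' difference was not tested. In mTOR Tg replicate 2 the medians of all genes lay between -0.00 and 0.01 in the 4 quartiles of principal length, and those of members between -0.11 and 0.01.

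A correction of each library for length and GC content brought the members' median in mTOR Tg replicate 1 from 0.52 to 0.18, and the median log2 fold change from 0.28 to 0.10. It left 60 of 78 genes above the WT mean in that library, against 6849 of the 13137 genes with a length. Among 79 nuclear genes of the respiratory chain and ATP synthase, 61 were then above the WT mean. Across members, Spearman's rho between length and the difference in replicate 1 was -0.43 before the correction and 0.60 after it. With GC content in place of length, rho was 0.51 before and -0.52 after. The correction therefore did not remove either relation but turned it. Among the genes with the largest differences, it brought the log2 fold change of Mrps6 from 0.87 to 0.52, of Mrpl20 from 0.60 to 0.29, of Mrpl12 from 0.54 to 0.23 and of Mrpl54 from 0.53 to 0.09. For the long genes Mrpl19 and Mrpl35 it went the other way, from 0.42 to 0.70 and from 0.29 to 0.54. With the length and GC of the shortest coding transcript the median log2 fold change was 0.19. After the first correction the groups did not overlap in 17 members with mTOR Tg above WT (18.1% of all genes) and in 9 with mTOR Tg below (16.8%). The correlations are across genes of the same libraries, and genes are not independent replicates.

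**Figure D4:**
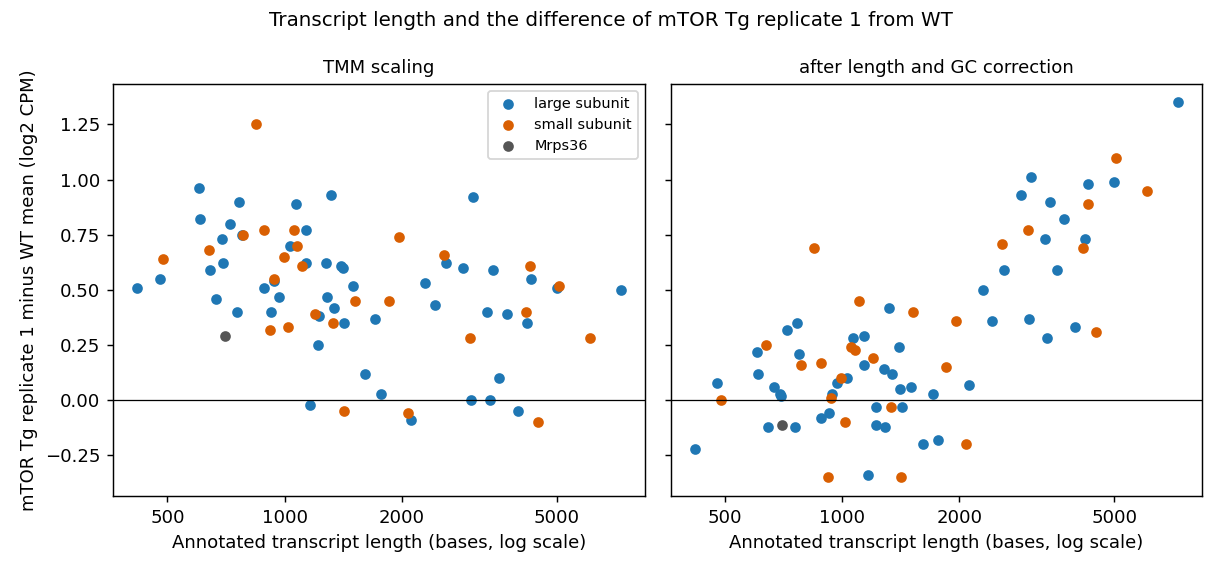
Difference of mTOR Tg replicate 1 from the WT mean (log2 CPM) against annotated transcript length (bases, log scale) for the 78 genes, before (left) and after (right) correction for length and GC content. Before the correction most genes lie above 0 at all lengths (rho -0.43), and after it the long ones stand highest (rho 0.60).

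Genes that act with the mitochondrial ribosome were read from lists. Of 5 subunit genes with other names, Chchd1 was at 17.1 and 14.9 CPM in WT and at 27.2 and 17.8 in mTOR Tg, and Gadd45gip1 at 17.2 and 16.9 CPM and at 28.3 and 17.6. The edgeR test called 0 of the 5 (median log2 fold change 0.31, 4 positive). Ptcd3, a small subunit gene, lay below WT in both mTOR Tg libraries, at 18.2 and 18 CPM against 15.7 and 15.8 CPM. Of 29 genes for assembly and rRNA processing, 20 had positive log2 fold changes (median 0.09) and 0 were called. Mtg2, a GTPase of large subunit assembly, was at 9.94 and 11.1 CPM in WT and at 16.0 and 13.9 in mTOR Tg (log2 fold change 0.51, SE 0.22), and Mterf4, which brings an rRNA methyltransferase to the large subunit, at 11.1 and 13.9 CPM and at 30.1 and 14.7 (0.84, SE 0.38). Both mTOR Tg values were above both WT values for each.

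Of 14 mitochondrial translation factors and related genes, 9 had positive log2 fold changes, with a median of 0.08 and 0 called. The elongation factor gene Tufm was at 45.4 and 44.0 CPM in WT and at 70.6 and 45.3 in mTOR Tg, and the RNA-binding protein gene Slirp at 22.7 and 22.3 CPM and at 35.5 and 22. In both, mTOR Tg replicate 1 alone stood away from WT. The medians of the 14 genes were 0.01 and -0.00 in mTOR Tg replicates 1 and 2, as over all genes tested.

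Of 13 regulators of mitochondrial gene expression and biogenesis, 5 had positive log2 fold changes (median -0.14) and 0 were called. Their medians were -0.31 and -0.03 in mTOR Tg replicates 1 and 2, and 8 of the 13 had negative log2 fold changes. These genes have a median length of 3755 bases. After the length and GC correction their median in replicate 1 was -0.10. Myc, a transcription factor of growth and ribosome synthesis, was at 3.40 and 3.18 CPM in WT and at 5.94 and 5.55 in mTOR Tg (log2 fold change 0.80, SE 0.26, edgeR adjusted p = 0.860). Its mTOR Tg values were close to each other and above both WT values. Gabpa, the DNA-binding part of GABP, was at 33.9 and 37.0 CPM in WT and at 14.0 and 32.2 in mTOR Tg (-0.62, SE 0.40), lowest by far in replicate 1.

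Nuclear genes of the respiratory chain and ATP synthase (79 genes) stood at 0.57 and -0.03 in the mTOR Tg libraries, and cytosolic ribosomal protein genes (77 genes) at 0.47 and -0.14. Mitochondrially encoded subunits (13 genes), the products of the mitochondrial ribosome, stood at -0.12 and 0.01. Both mTOR Tg libraries were above both WT libraries in 9 of the 79 respiratory genes (11.4%) and 0 of the 77 cytosolic ribosomal protein genes, against 21 of 78 mitochondrial ribosomal protein genes (26.9%). The share was 17.6% over all genes tested and 26.1% over genes within the quartiles of member length (919 to 2590 bases). Respiratory and cytosolic ribosomal genes are shorter than that range, with median lengths of 838 and 886 bases. Once corrected for length and GC, both were above in 10 of the 79, 0 of the 77 and 17 of the 78 genes (18.1% of all genes). Both were then below in 6, 29 and 9 genes (16.8% of all genes). After the length and GC correction, the medians in mTOR Tg replicate 1 were 0.08 for respiratory genes and -0.00 for cytosolic ribosomal ones. Mitochondrially encoded subunits then stood at -0.02 and members at 0.18. No test of these differences was made, and all rest on the same 4 libraries.

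**Figure D5:**
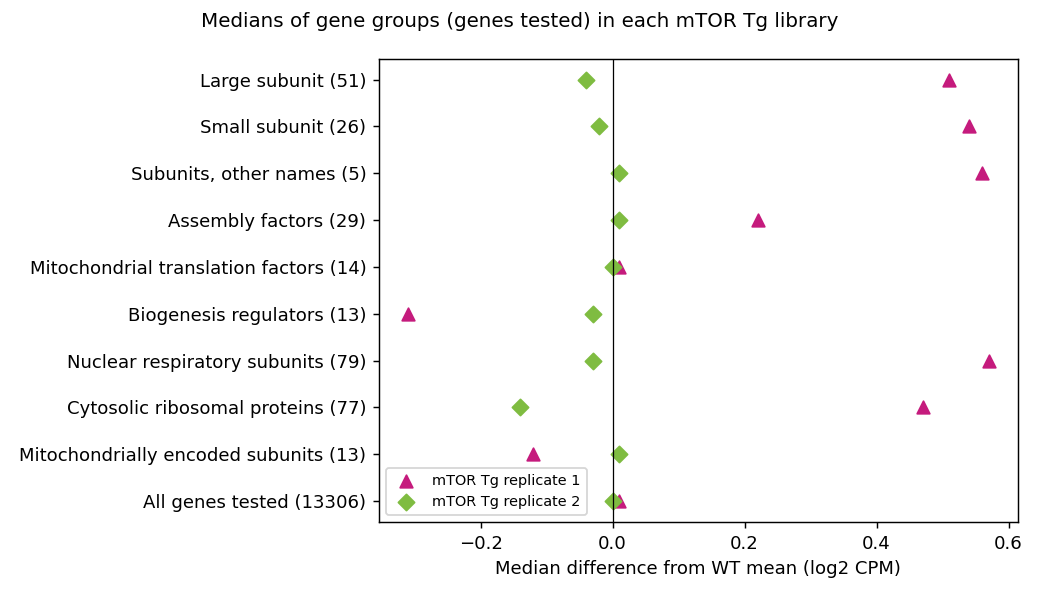
Median difference from the WT mean (log2 CPM) of each gene group in mTOR Tg replicate 1 (triangles) and replicate 2 (diamonds), with the number of genes tested in brackets. The large and small subunit groups stand at 0.51 and 0.54 in replicate 1 and at -0.04 and -0.02 in replicate 2. The nuclear respiratory subunits stand near them (0.57 and -0.03). All values are from before the correction for length and GC content.

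The genes that start upstream of members on the opposite strand were compared with them. Of the 17 partners 16 were tested, with medians of 0.26 and -0.04 in mTOR Tg replicates 1 and 2, against 0.52 and -0.06 for the 17 members they adjoin and 0.01 and -0.00 for all genes. The partners' median in replicate 1 was thus between those of the members and of all genes. Replicate 1 was above replicate 2 in 12 of the 16 partners and in 6723 of all 13306 genes tested. Among the 4741 genes within the quartiles of member length it was above in 3509. Those 4741 genes had a replicate 1 median of 0.32. After the length and GC correction the medians in replicate 1 were 0.07 for partners and 0.15 for the members they adjoin. No test of these differences was made. Fau was at 90.7 and 66.0 CPM in WT and at 148 and 80.2 in mTOR Tg, Ptcd2, the partner of Mrps27, at 8.51 and 8.89 CPM and at 13.5 and 10.5, and Lrrc46, the partner of Mrpl10, at 8.73 and 9.50 CPM and at 22.2 and 9.43. The 3 were chosen after their values were seen, as were the promoter examples and Ptcd3. Sars2 was at 7.69 and 8.14 CPM in WT and at 10.4 and 7.09 in mTOR Tg.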

How the data were processed

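The authors deposited raw read counts, 1 table with a row per gene symbol and a column for each of 4 libraries. HISAT2, edgeR and mm10 are named in the submitters' processing notes. Versions, the counting program, its annotation and its use of strand are not given in the sources seen. Columns were tied to samples by the names in the labels. Counts were fitted with edgeR 4.0.16 in R 4.3.3 (filterByExpr by group, minimum count 10, TMM factors of 0.928 to 1.04, quasi-likelihood test, genotype as the only term), with Benjamini-Hochberg adjustment over 13306 genes and a threshold of 0.05. The code was tested on simulated data. The standard error is the log2 fold change divided by the root of F. Normalised CPM use TMM-scaled library sizes, log2 CPM a prior count of 2, and summed markers and shares raw totals. Each member had at least 104 counts in each library, and no molecular identifiers are recorded. An exact two-sided permutation test of 2 against 2 libraries cannot give a p below 0.333.

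Lengths, GC content and positions come from GENCODE M21, matched by symbol. The correction for length and GC was a loess of each library's deviation (span 0.3). Members and lists were chosen with earlier results of these data known. The genes named were the 4 members with the highest and the 4 with the lowest log2 fold change, the 3 highest and 3 lowest per length, for each direction the 2 of smallest p, 10 picked for their role, and the 2 with the smallest p in each related list. The respiratory and cytosolic ribosomal groups were taken by symbol after the design was fixed. Alternatives were other scalings and filters, limma-voom 3.58.1, DESeq2 1.42.0, the replicate number as a block, the correction above and each library left out.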

Additional observations from a re-analysis of the deposited data

How the results depend on the processing

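The number of members called was 0 in every alternative except without mTOR Tg replicate 2, so that it ran from 0 to 55 with 1 library left out. The members' median log2 fold change stayed between 0.10 and 0.28 in the alternatives that kept all libraries, and ran from -0.04 to 0.52 with 1 library left out. Genes called over the whole table were 0 in edgeR and limma-voom, with 327 and 322 at an unadjusted p under 0.05, 12 in DESeq2, and 11 to 6200 with 1 library left out. The labels number the replicates in each genotype, but nothing says that equal numbers were paired, and deviations from the group means correlated at 0.071 within a number. With the replicate block 37 genes were called, 0 of them members, and the members' median was 0.26.

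Of 299 values of 23 named members in 13 alternatives, 275 kept their direction, and 15 passed the threshold, all without mTOR Tg replicate 2. With library sizes alone Mrpl1 was at -0.02. After the length and GC correction Mrpl47 was at 0.04, Mrps5 at 0.10, Mrpl50 at 0.01, Mrpl52 at -0.20, Mrpl14 at -0.10, Mrps18a at -0.01 and Mrps36 at -0.11. With the shortest transcript, an alternative chosen after seeing the data, Mrpl47 was at 0.12, Mrps5 at 0.16, Mrpl50 at 0.11, Mrpl52 at -0.05 and Mrps36 at -0.02. The cause of these reversals was not tested. Leaving out each library in turn, the log2 fold change ran from -0.08 to 0.96 for Mrpl54, from -0.23 to 0.51 for Mrpl52, from -0.09 to 0.59 for Mrpl14, from -0.03 to 0.12 for Mrpl1, from -0.19 to 0.92 for Mrpl11, from -0.14 to 0.44 for Mrpl45, from -0.01 to 0.77 for Mrps12, from -0.11 to 0.70 for Mrps18b, from -0.27 to 0.41 for Mrps30 and from -0.12 to 0.29 for Mrps36. For all of these but Mrpl1 the lower end is the value without mTOR Tg replicate 1. For Mrpl1 it is the value without WT replicate 2, and without mTOR Tg replicate 1 Mrpl1 was at -0.01. A fit without a library leaves 1 library in a group, whose spread is taken from the other.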
